A study of Mus musculus with 18 samples.

Results

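The genes described here encode the mitochondrial respiratory chain and the ATP synthase as they are named on the array. They were taken by gene name: subunits of complex I (Nduf names), complex II (Sdha to Sdhd), complex III (Uqcr names), complex IV (Cox4 to Cox8 names), the ATP synthase (Atp5 names) and cytochrome c (Cycs). The rule found 82 of the 27962 gene names on the array, represented by 115 probes, and the brightest probe stood for each gene. By name, 36 genes were counted with complex I, 4 with complex II, 6 with complex III, 17 with complex IV and 15 with the ATP synthase. Ndufa4 is thus counted with complex I, though it was found to be a subunit of complex IV. The remaining 4 are Cycs, the complex I assembly factor Ndufaf1, Atp5s (now Dmac2l, related to the ATP synthase) and Cox4nb. Cox4nb is now Emc8, a subunit of a membrane protein complex of the endoplasmic reticulum, and is no part of the respiratory chain. The genes of the chain that mitochondrial DNA encodes were represented by 0 of 13 names, so complexes I, III, IV and the ATP synthase are described by their nuclear-encoded subunits alone.

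The respiratory chain passes electrons from NADH (complex I) and succinate (complex II) through complex III and cytochrome c to complex IV, which reduces oxygen. Complexes I, III and IV pump protons across the inner mitochondrial membrane, and the ATP synthase uses their return to make ATP. Several complex IV subunits exist as a ubiquitous isoform and as isoforms of muscle, testis or other tissues. Nuclear respiratory factor 1 and the ETS factor GABP are known activators of many of the nuclear genes. In the thyroid, follicular cells need energy and oxidants for iodide uptake and hormone synthesis, while the side population is a rare fraction defined by pumping out a DNA dye.

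The study compared 4 groups of sorted mouse thyroid cells on 18 arrays. These were side population after partial thyroidectomy (TSP, 6 arrays), main population after partial thyroidectomy (TMP, 3), side population without this surgery (CSP, 6) and main population without it (CMP, 3). All came from C57BL/6 mice of both sexes, and all cells had been dissociated with collagenase and dispase and kept in culture for 2 days before sorting with the dye Hoechst. Verapamil, which blocks the pumps, served to set the gate, and the main population was what lay outside it. Age and the number of animals behind a sample are not given in the sources used here. The samples carried Cy5 and shared 1 reference in Cy3, a pool of RNA from Swiss Webster mouse tissues that includes brain, heart, kidney, liver, ovary and testis. Every value below is a log2 ratio of sample over this reference, so 0 means the signal of the reference and 1 means 2-fold.

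The arrays lie on 5 slides. Slide 1 holds CSP 1, CSP 2, TSP 1 and TSP 2, slide 2 holds TMP 1 and CMP 1, slide 3 holds TSP 3, TSP 4, CSP 3 and CSP 4, slide 4 holds TMP 2, CSP 5, CSP 6 and CMP 2, and slide 5 holds TSP 5, TSP 6, TMP 3 and CMP 3. Of the spots of an array, 38.8% to 72.0% were well above background in Cy5. TSP 1 and TSP 2 went against their label. Over all genes their median correlation was 0.95 with the main population arrays and 0.69 with the other side population arrays. Over 80 respiratory chain genes with a value on every array the same medians were 0.93 and 0.83. Results that rest on TSP are therefore given with these 2 arrays and without them.

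All 82 genes passed the filter on dim probes (Cy5 well above background on 3 arrays or more), and 77 were above background on all 18. The exceptions were Cox4i1, Cox8c and Sdhc, each on 17 arrays, Cox8b on 16, and Cox4i2. Cox4i2, the isoform of complex IV subunit 4 best known from lung, was above background on 0 TSP, 0 TMP, 3 CSP and 1 CMP arrays. No respiratory chain gene had a saturated spot in either channel. The median residual SD was 0.39 for these genes and 0.46 for all 20434 genes tested.

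In the fit without a term for slide, the control side population differed from the control main population in few of these genes. Of the 82, 4 were higher in CSP and 1 was lower (limma, Benjamini-Hochberg adjusted over all genes, adjusted p under 0.05). That is 6.1% of them, beside 14.9% of all genes, of which 7.62% were called higher and 7.25% lower. The 5 were Cycs, Ndufs8, Atp5l and Ndufv2 among the higher and Sdhd as the lower. Of these, all but Cycs rest on 1 probe. The mean log2 intensity over both channels was 10.6 for Atp5l, 11.8 for Ndufs8, 11.8 for Ndufv2, 14.3 for Sdhd and 15.8 for Cycs. The median was 14.9 for the 82 genes and 9.81 for all genes. In bulk samples, fewer cells of a type and less RNA per cell cannot be told apart.

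The differences were also small. The median difference (CSP minus CMP) was -0.03 over the 82 genes and 0.06 over all genes, with 38 genes above 0 and 44 below. The median size without regard to sign was 0.28 for the respiratory chain genes and 0.39 for all genes. A mean difference of at least 2-fold was seen in 3 of the 82 genes (3.66%), beside 18.3% of all genes. For 53 of the 82 genes (64.6%) the 95% interval of the difference lay wholly within 2-fold, beside 43.8% of all genes. All 6 CSP arrays lay above all 3 CMP arrays for 6 genes and below them for 0 genes, where 20.3% of all genes did not overlap. The 6 were Uqcrb, Ndufa2, Ndufa8, Atp5l, Ndufs8 and Cycs. At an unadjusted p under 0.05, 14 of the 82 genes passed in limma, beside 29.4% of all genes. The 82 genes were brighter than most (median log2 intensity 14.9 beside 9.81). Here and below, differences were not compared with those of equally bright genes.

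**Figure D1:**
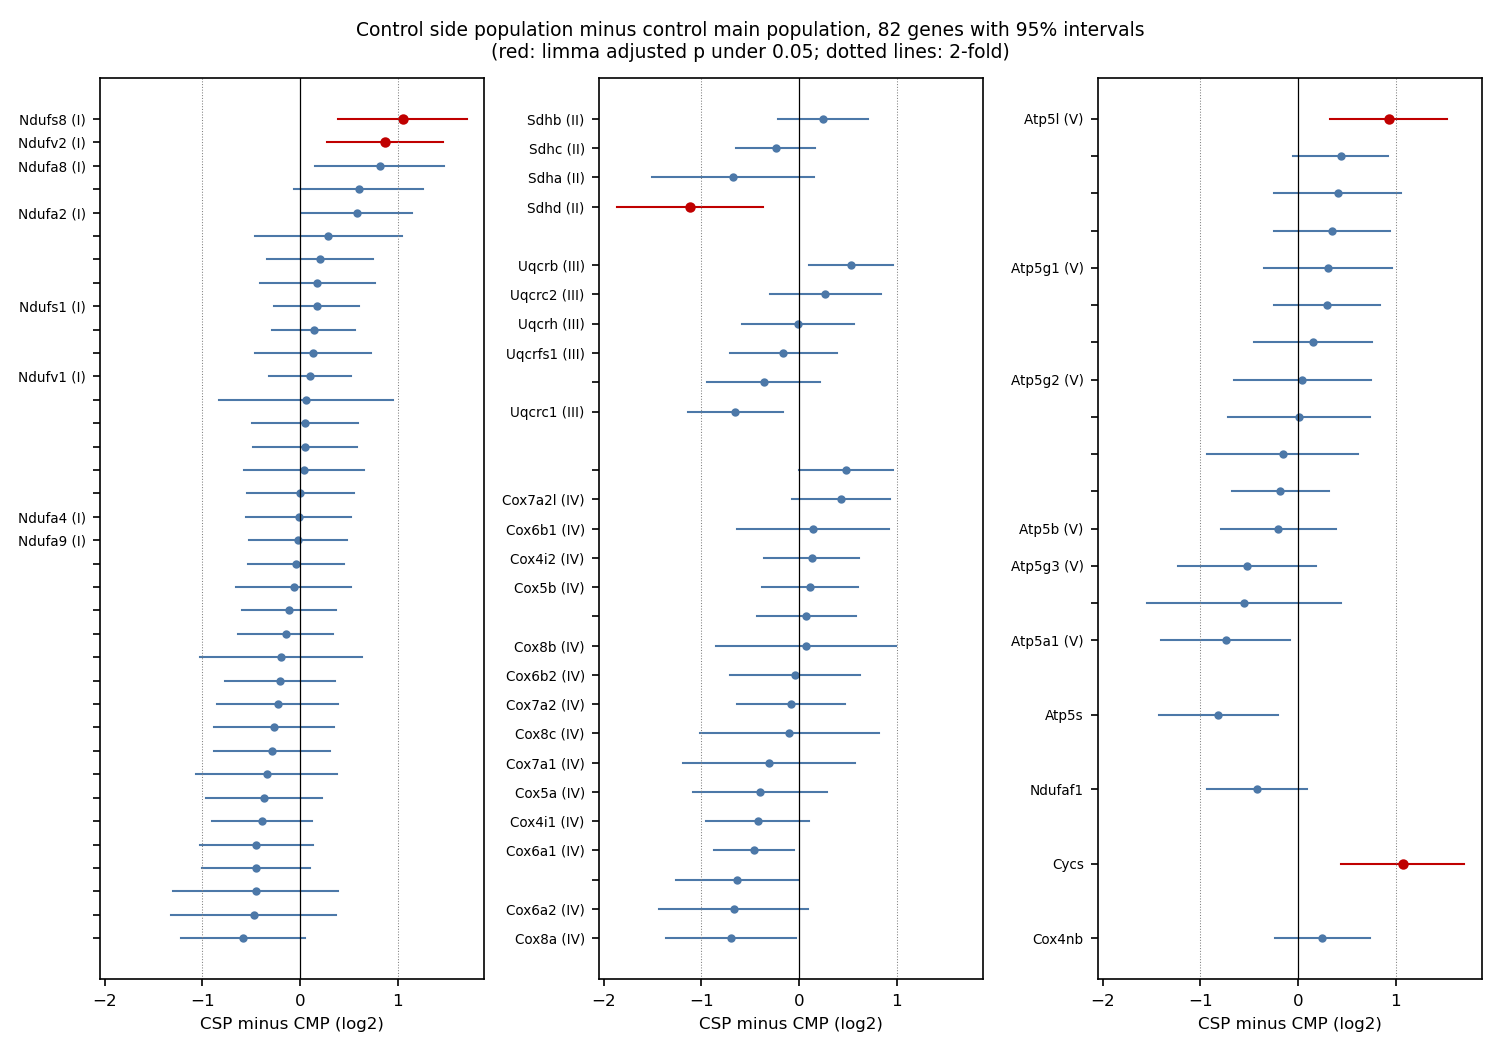
Difference between the control side population (CSP, 6 arrays) and the control main population (CMP, 3 arrays) for each of the 82 genes, as log2 with its 95% interval, grouped by complex (in brackets) and ordered by size, with the genes described in the text labelled. Red points are the 5 genes called by limma, and 53 intervals lie between the dotted 2-fold lines.

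**Figure D2:**
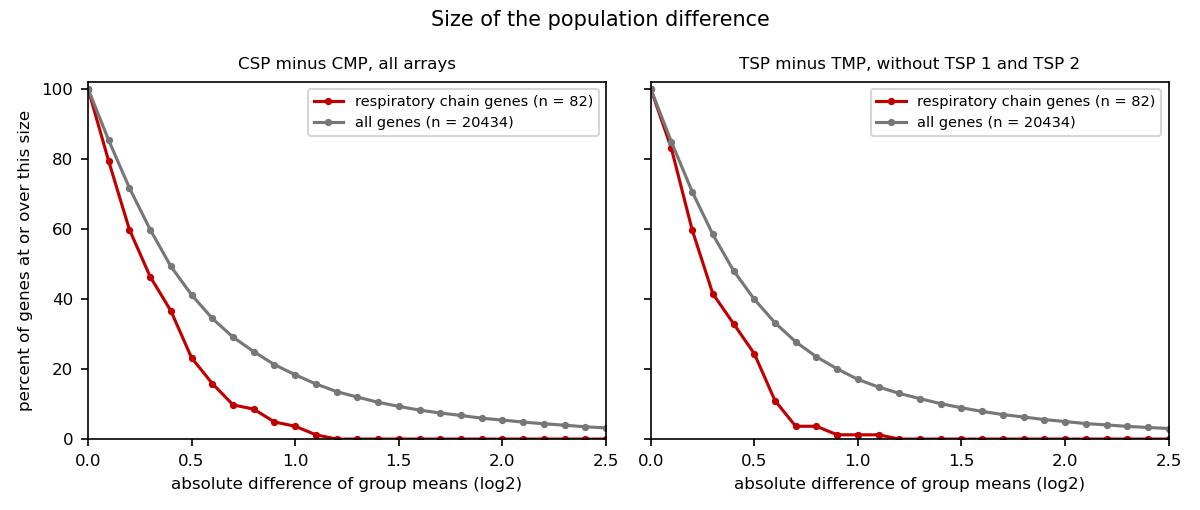
Share of genes, in percent, whose group means differ by at least the size on the horizontal axis (log2), for the 82 respiratory chain genes (red) and all 20434 genes (grey). In CSP minus CMP, 3.66% of the respiratory chain genes and 18.3% of all genes reach 1, and the red line is also the lower one in TSP minus TMP without TSP 1 and TSP 2.

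The count of called genes depended on single arrays and on the slides. It was 0 without CMP 1 and 0 without CMP 2, 2 without CSP 1, and 3 without CSP 3 or without CSP 4. The share of all genes called without these arrays is not given here. The counts therefore do not show whether the loss is particular to the 82 genes. With slide as a fixed block 23 genes were called, 17 higher and 6 lower, where 28.2% of all genes were called, and with slide as a random block 14, where 26.2% of all genes were called. With the fixed block the share called of the 82 genes was thus close to that of all genes. The lower share of the 82 genes was not seen in that fit. Slides 1 and 3 hold no CMP array. The fixed block fit therefore links their CSP arrays to CMP through TSP arrays, among them TSP 1 and TSP 2. The fixed block values of single genes below come from this fit. The count of the same fit without TSP 1 and TSP 2 is in the closing section. Slide 4 alone holds both groups, with CSP 5 and CSP 6 against the single array CMP 2. There 0 of the 82 and 0 of all genes were called, which with 1 CMP array says nothing about whether the calls hold, and the values within slide 4 below are given for their size alone. Without TSP 1 and TSP 2, which enter the shared estimate of the spread, 6 of the 82 genes were called (7.32%), where 19.3% of all genes were called. Of the 6, 5 were higher and 1 lower, beside 10.2% and 9.07% of all genes, and the added gene was Ndufa8.

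Cycs encodes cytochrome c, the soluble carrier between complexes III and IV, which also triggers caspase activation when released. Its probe lies at chr6:50525306-50525365 (build mm7). CSP values ran from -0.67 over a median of -0.17 to 0.35, and the CMP values were -1.56, -1.04 and -1.04. No CSP array reached down to the CMP arrays. The difference was 1.07 ± 0.30 (SE), or 2.11-fold, with a limma adjusted p of 0.0227. It was 0.98 with slide as a fixed block (adjusted p 0.0137 in limma) and 0.63 within slide 4. Of the 49 settings run, Cycs passed in 42, Ndufs8 in 40, Atp5l in 36, Sdhd in 34, Ndufv2 in 24 and Ndufa8 in 18. These settings overlap, with leaving out 1 array at a time among them, and are not independent tests. No call among the 82 genes was left without CMP 1 or without CMP 2. The other 2 Cycs probes gave 0.47 and 0.21 with adjusted p of 0.462 and 0.749 in limma over all probes, so the probes of this gene disagree on the size. Cycs has processed pseudogenes in the mouse genome, and which transcripts each probe detects was not tested.

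Of complex I, 2 of 36 genes were called, both higher in CSP, and both encode iron-sulfur proteins of the peripheral arm, which carries electrons from NADH. Ndufs8, which carries iron-sulfur clusters next to the membrane arm, was measured by a probe within chr19:3806006-3806374 (mm7). Its CSP values had a lowest value of -0.28, a median of -0.01 and a highest value of 0.39, and its CMP values were -1.67, -1.001 and -0.40. The groups did not overlap, though CMP 3 came close to the lowest CSP array. The difference was 1.05 ± 0.31 (SE, adjusted p 0.0306 in limma), 1.29 with slide as a fixed block and 1.19 within slide 4.

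Ndufv2, a partner of the NADH-binding subunit Ndufv1, was measured within chr17:64306861-64307002 (mm7). It had CSP values from -1.14 over a median of -0.08 to 0.07, against -1.05, -1.34 and -1.27 in CMP. The groups overlapped, because CSP 5 (-0.86) and CSP 6 (-1.14), both on slide 4, lay near the CMP arrays while the other 4 CSP arrays lay between -0.10 and 0.07. The difference was 0.87 ± 0.28 (SE, adjusted p 0.0441 in limma). It was 0.73 with slide as a fixed block and 0.33 within slide 4.

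The other genes of complex I were not called with all arrays. Over the 36 genes the differences ran from -0.59 to 1.05, and 23 intervals (63.9%) lay within 2-fold. The core subunits Ndufs1 (0.17) and Ndufv1 (0.10) and the accessory subunit Ndufa9 (-0.02) had differences near 0, with limma adjusted p from 0.647 to 0.964. Ndufv1 binds NADH next to Ndufv2, and its 95% interval, -0.32 to 0.52, lay within 2-fold. Ndufa4, named for complex I but found to be a subunit of complex IV, had a difference of -0.01 with an interval from -0.55 to 0.53. Ndufa8, an accessory subunit of the membrane arm, was higher on every CSP array than on every CMP array, with a CSP median of 0.15 and a CMP median of -0.57. Its difference of 0.81 ± 0.31 (SE) missed the threshold with all arrays (adjusted p 0.0868 in limma) and passed it without TSP 1 and TSP 2 (adjusted p 0.0282).

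Complex II, succinate dehydrogenase, also belongs to the tricarboxylic acid cycle and is encoded wholly in the nucleus. Sdhd, 1 of its 2 membrane anchors, was the only one of the 82 genes called lower in CSP. Its probe lies at chr9:50575107-50575166 (mm7). CSP values ran from -2.45 over a median of -2.04 to -1.67, and the CMP values were -0.76, -0.14 and -1.92. CMP 1 and CMP 2 lay above all CSP arrays, whereas CMP 3, on slide 5, lay among them. The difference was -1.12 ± 0.36 (SE, adjusted p 0.0417 in limma), -1.42 with slide as a fixed block, and -2.26 within slide 4.

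The main population arrays followed the slide for Sdhd but not for every gene of complex II. Sdha and Sdhb were also lowest on CMP 3 and TMP 3 of slide 5, though Sdhb was -2.51 on both CMP 2 and CMP 3. Sdhc went the other way and was highest there, at -0.12 on CMP 3 and -0.04 on TMP 3. In the main population, slide and replicate number are the same split and cannot be told apart. TMP 3, also on slide 5, had -2.02 for Sdhd, against -0.72 for TMP 1 and -0.91 for TMP 2. The catalytic subunit Sdha had a difference of -0.68 (95% interval -1.51 to 0.15), the other anchor Sdhc -0.24 and the iron-sulfur subunit Sdhb 0.25, with limma adjusted p of 0.276, 0.452 and 0.496. The Sdhc spot of TSP 5 was left out by the scanner's outlier mark. The 4 genes of the complex thus did not share a direction. Their median per array was -1.96 ± 0.40 in CSP (SD, n = 6) and -1.15 ± 0.59 in CMP (SD, n = 3), where CMP 3 had -1.83, inside the CSP range of -2.57 to -1.67. Within slide 4 the median was -2.57 on CSP 5 and -2.36 on CSP 6, against -0.86 on CMP 2. Slide 5 holds no CSP array, so the low value of CMP 3 has none beside it on its own slide.

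**Figure D3:**
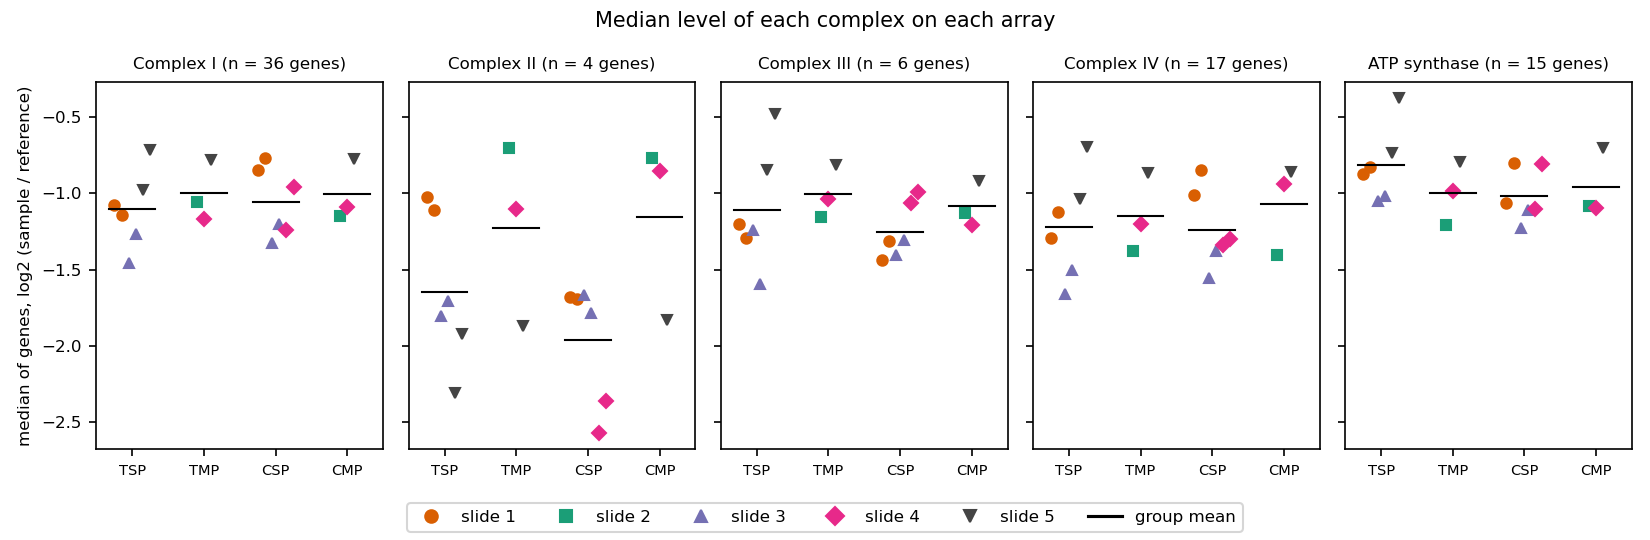
Median over the genes of each complex on each array, as log2 of sample over reference, with the number of genes in the panel titles. Marks show the slide and black lines the group means. Complexes I, III, IV and the ATP synthase have overlapping groups, and in complex II the arrays CMP 3 and TMP 3 of slide 5 lie with the CSP arrays.

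Of complex III, 0 of 6 genes were called. Uqcrc1, a core protein of the complex, had CSP values from -2.68 to -1.79 with a median of -2.45, and CMP values of -1.88, -1.94 and -1.42. CSP 6, at -1.79, was the 1 CSP array that reached the CMP range. Its difference was -0.65 ± 0.23 (SE, adjusted p 0.0643 in limma). The other core protein, Uqcrc2 (0.27), the Rieske iron-sulfur protein Uqcrfs1 (-0.16) and the hinge protein Uqcrh (-0.01) had limma adjusted p from 0.555 to 0.985.

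Of complex IV, 0 of 17 genes were called, and the isoforms differed widely in their ratio to the reference. The ubiquitous isoforms Cox4i1, Cox6a1, Cox6b1, Cox7a2 and Cox8a had group means between -1.64 and -0.41. The isoforms known from heart and skeletal muscle had far lower ratios: Cox6a2 averaged -4.29 in TSP, -4.05 in TMP, -4.68 in CSP and -4.01 in CMP. Cox7a1 averaged between -3.32 and -3.01, and Cox8b between -4.12 and -4.01, over the 4 groups. Cox8c, an isoform known from testis, had the lowest ratio of all 82 genes, with group means between -5.65 and -5.54. Cox6b2, also known from testis, was not set apart in this way, with group means between -1.32 and -1.24. The reference pool contains heart and testis RNA.

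CSP and CMP overlapped for all 17 genes of complex IV. Cox7a2l, which takes part in assembling supercomplexes of the chain, was above the reference on all 18 arrays, with a lowest value of 0.44 in CSP and 0.43 in CMP. The CSP minus CMP differences with the smallest adjusted p among these 17 genes were those of Cox6a1 (-0.46, adjusted p 0.12 in limma) and Cox8a (-0.70, adjusted p 0.147). For Cox4i1 the CMP 2 spot was left out by the scanner's outlier mark, and the difference rests on 2 CMP arrays (-0.42, 95% interval -0.95 to 0.11). The nuclear-encoded subunits Cox5a (-0.40) and Cox5b (0.12) had limma adjusted p of 0.459 and 0.791.

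The muscle and testis isoforms moved with the slide. Cox7a1 had -4.07 and -3.99 on TSP 3 and TSP 4 of slide 3, against -2.32 on each of TSP 5 and TSP 6 of slide 5. With slide as a fixed block, CSP was higher than CMP for Cox7a1 (0.49), Cox8b (0.72) and Cox8c (0.75), with limma adjusted p of 0.0342, 0.0378 and 0.0117. Without the block the same differences were -0.31, 0.07 and -0.10 and missed the threshold, so the direction for Cox7a1 and Cox8c depends on the slide term. Of the 49 settings run, Cox7a1 and Cox8b passed in this fixed block fit alone, 1 setting each, and Cox8c passed in 2. The mean of 7 skeletal muscle markers, among them Ckm and Acta1, was -3.90 and -4.17 on TSP 3 and TSP 4, and -2.84 and -2.53 on TSP 5 and TSP 6. Over the groups this mean ranged from -4.17 to -2.53 in TSP, -4.02 to -3.06 in TMP, -3.93 to -3.04 in CSP and -3.97 to -2.98 in CMP, and 0 of these 7 markers were called in CSP minus CMP. Of the 7 markers, 5 were above background on all arrays in TSP and CSP and 6 in TMP and CMP. The means of the brown adipocyte, white adipocyte, cardiac muscle and macrophage markers were also lower on TSP 3 and TSP 4 than on TSP 5 and TSP 6. For brown adipocyte markers they were -3.72 and -3.62, against -2.46 and -1.83. In the other marker lists these arrays overlapped. The median Cy5 background was 42.5 on TSP 3 and TSP 4, 92 on TSP 5 and 92.5 on TSP 6. The part of the markers and of the background in the levels of these isoforms was not tested.

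**Figure D4:**
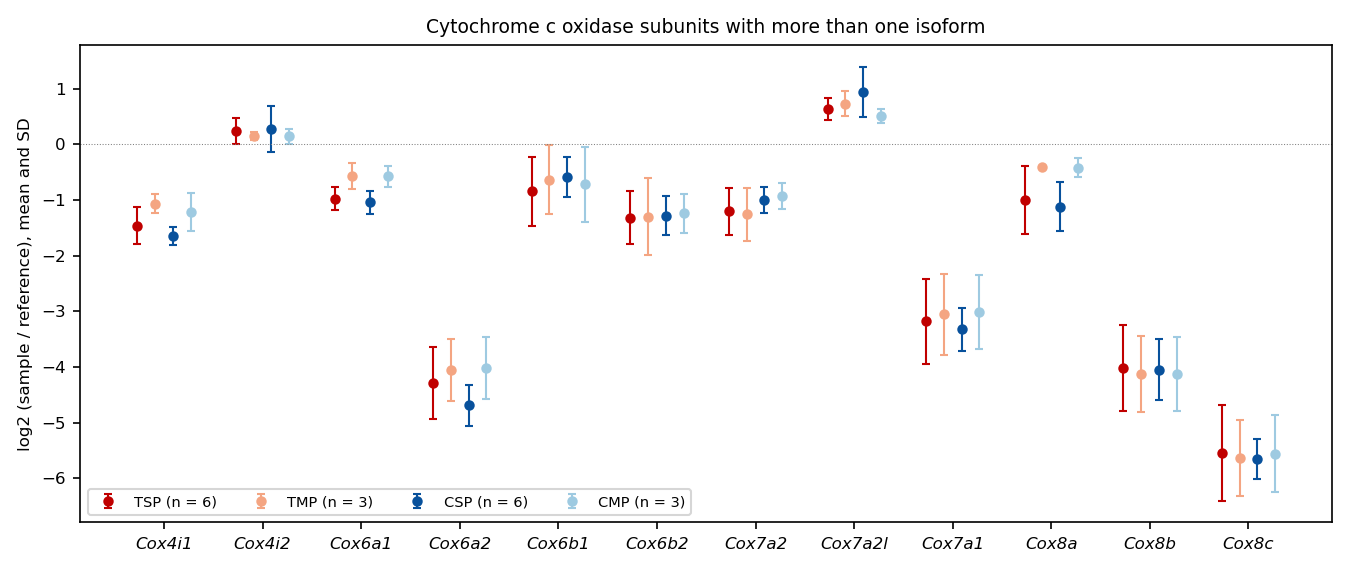
Group means with SD of 12 complex IV subunits that have more than one isoform or are related by name, as log2 of sample over reference, in TSP and CSP (n = 6) and TMP and CMP (n = 3; n = 2 for Cox4i1 in CMP). Cox6a2, Cox7a1, Cox8b and Cox8c lie below -3 in all 4 groups.

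Of the ATP synthase, 1 of 15 genes was called. Atp5l, subunit g of the membrane part, was measured at chr9:44854978-44855037 (mm7). CSP values ran from 0.35 over a median of 0.56 to 1.08, and CMP values were -0.80, -0.10 and 0.05. The groups did not overlap, and the difference was 0.93 ± 0.28 (SE, adjusted p 0.0342 in limma). It was 0.92 with slide as a fixed block and 0.54 within slide 4.

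The catalytic core of the ATP synthase gave no call. Atp5a1 had a difference of -0.74 (adjusted p 0.12 in limma), in which CMP 1, at 0.24, stood above CMP 2 and CMP 3 at -1.04 and -0.97. Atp5b had -0.20, and the genes of the membrane ring, Atp5g1, Atp5g2 and Atp5g3, had 0.31, 0.04 and -0.52, with limma adjusted p from 0.33 to 0.952. The 3 ring genes encode the same mature protein, so their transcripts differ where the protein does not.

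**Figure D5:**
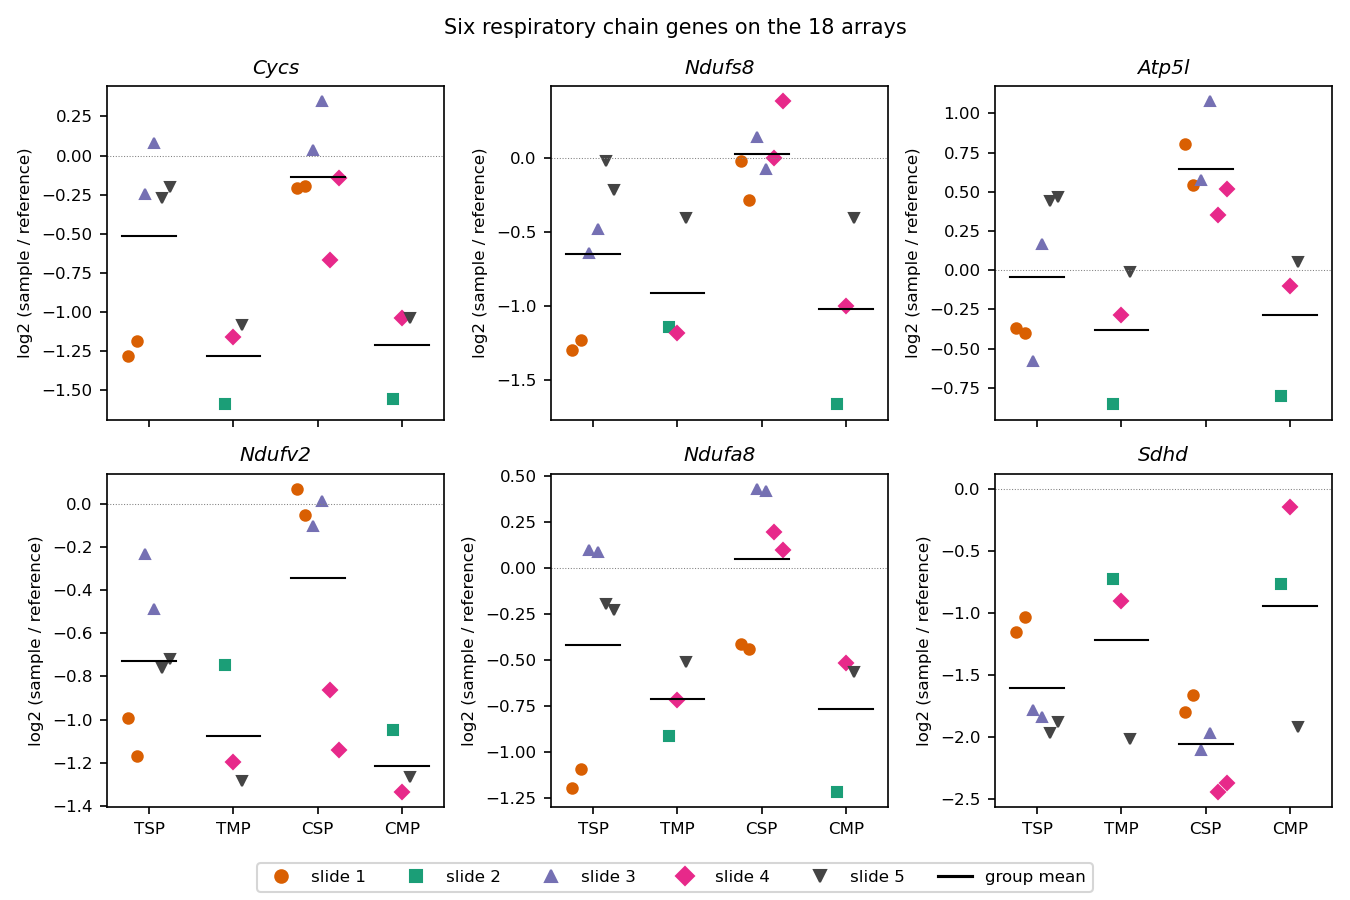
Values of 6 genes on all 18 arrays, as log2 of sample over reference, by group, with marks for the slide and a black line for each group mean. The CSP arrays lie above all CMP arrays for Cycs, Ndufs8, Atp5l and Ndufa8, and TSP 1 and TSP 2 (slide 1) lie below the other 4 TSP arrays for Cycs, Ndufs8, Ndufv2 and Ndufa8.

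Promoter sequence was examined because 4 of the called genes were higher together. Of the 82 genes, 67 have a promoter in the RefSeq table used (build GRCm38.p6), taken here as the 250 bases before the gene start. Motifs were searched on both strands as GCGC and TGCGC with any base between them for nuclear respiratory factor 1, CCGGAAG for ETS factors such as GABP, and CCATNTT for YY1. The first was found in 17.9% of the 67 promoters, beside 6.7% of the 9749 promoters of genes tested. The second was found in 16.4% beside 10.8%, and the third in 10.4% beside 10.3%. Of the called genes, Sdhd holds the first and the second motif, Atp5l the second and Ndufs8 the third, while Cycs and Ndufv2 hold none of these letters in this window. The windows of Cycs, as the gene with the largest rise, and of the 3 genes with a match are shown 5′ to 3′, with matches in capitals.
Cycs, chr6:50566570-50566819, minus strand: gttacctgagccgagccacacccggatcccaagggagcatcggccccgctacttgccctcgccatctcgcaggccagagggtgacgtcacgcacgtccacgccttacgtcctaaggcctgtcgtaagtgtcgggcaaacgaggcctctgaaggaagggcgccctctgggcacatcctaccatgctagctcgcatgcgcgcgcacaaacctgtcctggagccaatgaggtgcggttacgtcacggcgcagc
Ndufs8, chr19:3912775-3913024, minus strand: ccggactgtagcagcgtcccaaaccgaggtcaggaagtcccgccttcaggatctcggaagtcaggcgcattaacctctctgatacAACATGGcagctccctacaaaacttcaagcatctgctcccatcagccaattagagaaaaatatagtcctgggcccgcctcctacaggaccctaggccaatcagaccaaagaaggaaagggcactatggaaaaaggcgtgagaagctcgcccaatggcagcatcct
Atp5l, chr9:44920743-44920992, minus strand: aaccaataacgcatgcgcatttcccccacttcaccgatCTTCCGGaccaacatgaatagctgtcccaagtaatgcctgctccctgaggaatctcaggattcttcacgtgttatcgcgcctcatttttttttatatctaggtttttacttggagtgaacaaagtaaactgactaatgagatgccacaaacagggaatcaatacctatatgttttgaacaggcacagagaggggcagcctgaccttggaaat
Sdhd, chr9:50603850-50604099, minus strand: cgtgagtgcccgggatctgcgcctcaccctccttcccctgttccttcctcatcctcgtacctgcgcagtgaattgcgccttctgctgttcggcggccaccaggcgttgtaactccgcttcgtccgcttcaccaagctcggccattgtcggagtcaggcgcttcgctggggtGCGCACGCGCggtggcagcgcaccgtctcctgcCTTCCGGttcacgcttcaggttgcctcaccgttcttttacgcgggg
A match is a description of the letters and not of binding, and the motifs do not sort the genes that were higher from the one that was lower.

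After partial thyroidectomy, the comparison of side with main population gave 0 calls among the 82 genes and 0% among all genes with all 6 TSP arrays. At an unadjusted p under 0.05, 4 of the 82 and 2795 of all genes (13.7%) passed in limma. Without TSP 1 and TSP 2, 1 of the 82 genes was called (1.22%), where 14.7% of all genes were called. This gene was Cycs, which was higher, as were 7.68% of all genes, while 0 of the 82 were lower, beside 7.02% of all genes. Its values were -1.29 and -1.18 on TSP 1 and TSP 2 and lay between -0.28 and 0.08 on the other 4 TSP arrays, against -1.59, -1.16 and -1.09 in TMP. Without TSP 1 and TSP 2 the difference was 1.12 ± 0.25 (SE, adjusted p 0.0048 in limma), close in size to that without surgery. At an unadjusted p under 0.05, 9 of the 82 genes passed, beside 26.1% of all genes. All 4 remaining TSP arrays lay above all TMP arrays for 6 genes and below them for 5, where 23.8% of all genes did not overlap. Within slide 5 (TSP 5 and TSP 6 against the single array TMP 3) the median difference was 0.049 over the 82 genes and 0.047 over all genes. With 1 TMP array this says nothing about calls. With slide as a fixed block and without the same 2 arrays, 7 genes were called, where 15.7% of all genes were called.

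The other genes called between the control populations had smaller differences here. Without TSP 1 and TSP 2, TSP minus TMP was 0.57 for Ndufs8, 0.51 for Atp5l, 0.53 for Ndufv2, 0.65 for Ndufa8 and -0.65 for Sdhd, with limma adjusted p of 0.236, 0.325, 0.293, 0.125 and 0.293. Each kept the sign it had in CSP minus CMP. The median difference over the 82 genes was -0.05, beside 0.04 over all genes, and the median size was 0.24 beside 0.38. A mean difference of 2-fold or more was seen in 1.22% of the 82 genes and 17.0% of all genes. The 95% intervals of 44 of the 82 genes (53.7%) lay within 2-fold, beside 39.3% of all genes.

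Whether the population difference itself depended on surgery was tested as an interaction, and 0 of the 82 and 0% of all genes passed, with all arrays and without TSP 1 and TSP 2. At an unadjusted p under 0.05 the counts in limma were 0 of the 82 and 220 of all genes (1.08%) with all arrays, and 1 and 122 (0.597%) without TSP 1 and TSP 2. The 1 gene was Cox4nb, which is no respiratory chain gene. The 95% interval of the interaction lay within 2-fold for 39 of the 82 genes (47.6%), beside 26.9% of all genes, so for the other genes a dependence of that size was not resolved.

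In the fit without a block, surgery gave no call within either population. In the side population (TSP minus CSP) 0 of the 82 and 0% of all genes passed, with 6 and 1861 (9.11% of all genes) at an unadjusted p under 0.05 in limma. Without TSP 1 and TSP 2 the counts were again 0 and 0%, with 1 and 701 (3.43%) at the unadjusted threshold. The 1 gene was again Cox4nb. The differences without these 2 arrays ran from -0.71 for Cox4nb to 0.43 for Atp5s, and the intervals of 76 of the 82 genes (92.7%) lay within 2-fold, beside 75% of all genes. For Cycs the difference was -0.02 (95% interval -0.47 to 0.43). With slide as a fixed block and all arrays, 8 of the 82 genes were called, where 4.41% of all genes were called, and 0 were called in the same fit without TSP 1 and TSP 2.

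In the main population (TMP minus CMP) 0 of the 82 and 0% of all genes passed, with 0 and 25 (0.122%) at an unadjusted p under 0.05 in limma. The differences ran from -0.39 to 0.25, and the intervals of 68 of the 82 genes (82.9%) lay within 2-fold, beside 59.5% of all genes. These intervals reached a median of 0.68 to either side of the difference. Same-numbered TMP and CMP arrays deviate together, and with the pairing as a replicate block in these 6 arrays alone the median reach was 0.35. In that paired fit the intervals of all 82 genes lay within 2-fold, beside 99% of all genes. Called were 0 of the 82 and 6 of all genes. At an unadjusted p under 0.05, 2 of the 82 genes passed in the paired fit, beside 6.01% of all genes (limma). Cycs had -1.59, -1.16 and -1.09 in TMP and -1.56, -1.04 and -1.04 in CMP. TMP was the lower one in each of the 3 pairs, by a paired difference of -0.07 with a 95% interval from -0.40 to 0.27.

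Against the reference pool, most respiratory chain genes were low in all 4 groups. The group mean was below the reference for 79 of the 82 genes in TSP, 79 in TMP, 76 in CSP and 79 in CMP. The median of these means was -1.01 in TSP, -1.05 in TMP, -1.06 in CSP and -1.02 in CMP. Over all genes the median was between -0.01 and 0.01. The probes were bright, with 97.2% of all genes dimmer than the median of the 82, and for the 996 genes as bright the medians lay between -0.18 and -0.07.

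The size of this deficit depended on the normalization. With each array centred on its median in place of loess, the medians of the 82 genes were -0.28 in TSP, -0.39 in TMP, -0.43 in CSP and -0.28 in CMP. In those values 58, 64, 57 and 60 genes, in the same order of groups, were below the reference, while the medians of all genes were -0.11, -0.15, -0.40 and -0.20. In CSP the 82 genes and all genes then had nearly the same median. Cox4nb, which is no respiratory chain gene, had the highest ratio of the 82 in each group, at 0.81, 1.24, 1.45 and 1.20.

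Other mitochondrial genes were examined as lists, whose calls stand beside 14.9% of all genes. The share called was 33.3% of carriers and uncoupling genes, 17.6% in fatty acid oxidation and 16.7% in the tricarboxylic acid cycle. It was 7.14% of biogenesis regulators, 6.06% of assembly factors and 5.13% of the mitochondrial ribosome. Of 33 measured assembly factors, 2 were lower in CSP than in CMP, Cox18 (-1.23) and Oxa1l (-1.03), both inserters of proteins into the inner membrane, and 0 were higher (limma). Of 12 carriers and uncoupling genes, 4 were lower and 0 higher: Ckmt1, a mitochondrial creatine kinase, by 3.64-fold, the uncoupling protein Ucp2 by 2.92-fold, the outer membrane channel Vdac1 by 2.53-fold, and the ATP synthase inhibitor Atpif1 by 1.95-fold. The median of this list was -0.61 and that of all genes 0.06.

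Of 18 genes of the tricarboxylic acid cycle, 3 were lower and 0 higher, namely malate dehydrogenase Mdh2 (-1.83) and the succinyl-CoA ligase subunits Suclg2 (-1.43) and Sucla2 (-1.17). Of 17 genes of fatty acid oxidation, 3 were lower and 0 higher, namely Acaa2 (-1.04), Hadh (-0.96) and Eci1 (-0.94). The medians of these lists were -0.33 and -0.43. Of 14 biogenesis regulators, 1 was higher and 0 lower, Pprc1, a coactivator related to PGC-1, at 1.21 (adjusted p 0.0252 in limma). Of 78 genes of the mitochondrial ribosome, 3 were higher (Mrpl52, Mrpl48 and Mrpl15) and 1 was lower, Mrps6 at -1.18. Of 9 genes of the chain or its assembly that carry other names on the array, 0 were called in either direction.

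After surgery and without TSP 1 and TSP 2 (TSP minus TMP, limma), 14.7% of all genes were called. Called were 1 higher and 2 lower of the 33 assembly factors, 1 and 2 of the 12 carriers, 0 and 2 of the 18 cycle genes, and 0 and 1 of the 17 fatty acid oxidation genes. Of the 14 regulators 1 was higher and 0 lower, and of the 78 ribosome genes 0 were higher and 4 lower. Of the genes named above, Ckmt1 had -1.85, Vdac1 -1.16, Mdh2 -1.31, Suclg2 -1.11, Acaa2 -0.99, Cox18 -1.25, Oxa1l -0.97, Mrps6 -1.46 and Pprc1 1.44, each called and with the sign of the control comparison. Ucp2 (-1.14), Atpif1 (-0.68), Sucla2 (-0.66), Hadh (-0.67), Eci1 (-0.71), Mrpl52 (0.64), Mrpl48 (0.49) and Mrpl15 (0.42) missed the threshold, with limma adjusted p from 0.0813 to 0.236. Slc25a5, an ADP/ATP carrier, was higher at 0.76 and Cox16, an assembly factor of complex IV, at 0.85, and both are named after their values were seen.

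The populations also differed in markers of cell type. In CSP minus CMP, 7 of 10 thyroid follicular and 7 of 7 epithelial markers were lower, and 6 of 7 endothelial, 4 of 6 fibroblast and 4 of 7 pericyte markers were higher. The mean of the 10 follicular markers ranged from -0.10 to 2.99 in TSP, 2.73 to 3.07 in TMP, 0.12 to 1.86 in CSP and 2.51 to 3.12 in CMP, and the highest TSP values were those of TSP 1 and TSP 2. Of these markers, 1 was above background on all arrays in TSP, 9 in TMP, 1 in CSP and 8 in CMP. The mean of the 7 endothelial markers ranged from -2.22 to 1.37 in TSP, -2.36 to -1.61 in TMP, 0.34 to 1.70 in CSP and -2.41 to -1.81 in CMP. The part of cell type in the differences of the respiratory chain genes was not tested.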

How the data were processed

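RNA of 18 sorted thyroid cell samples was measured on two-colour Agilent arrays, sample in Cy5 and reference in Cy3, with no dye swap. The deposited scanner files hold spot intensities and the scanner software's log10 ratio of processed Cy5 over Cy3, per the file headers. Agilent Feature Extraction was version 8.5.1.1 per the submitters' processing notes and 9.5.1.1 per the file headers. The deposited table of processed values holds log2 ratios by the authors for 33040 probes, with centring and normalization not given in the sources used here (column medians 0.13 to 0.30). Its scale was judged from slopes of 0.91 to 1.11 against the scanner log2 ratios. Of its 18 columns 10 matched their own scanner file best, so it served only as an alternative.

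Mean intensities were background corrected by normexp (offset 50) and loess normalized in limma 3.58.1 (R 4.3.3), with control spots at weight 0. Spots marked as non-uniform or outliers were left out, and spots of a probe were averaged. Probes had to be marked as well above background in the sample channel on 3 or more of 18 arrays, and the brightest such probe stood for a gene, which left 20434 genes. The 4 group means were fitted, and p-values were adjusted by Benjamini-Hochberg over all genes in each contrast, a call being an adjusted p under 0.05. The limma fit alone was tested on simulated log2 ratios with independent normal noise. That test did not cover background correction, normalization, the filter or the choice of probe, and it held no slide effect. Array number limits the precision.

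Probe coordinates are those of the files (mm7), and promoters are from RefSeq (GRCm38.p6). Python 3.11.15 and matplotlib 3.10.9 drew the figures. Named are up to 8 called genes a direction and contrast, the isoform pairs, a core group per complex and up to 4 called genes a list. A result under this rule is not reported here. The genes and lists were chosen with earlier results of these data known. Alternatives to background correction, normalization, filter, probe choice, slide, replicate number and samples are described in the closing section.

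Same-numbered TMP and CMP arrays deviated together (correlations 0.67, 0.74 and 0.81) and share slides. Same-numbered TSP and CSP arrays did not in every pair (-0.05 to 0.46), so the numbers were taken to pair the main population arrays alone.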

Additional observations from a re-analysis of the deposited data

Results flagged for a closer look

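In 86 groups of 6 arrays (TSP or CSP, named genes), 4 had an array that stood apart from the rest by Dixon's criterion, and chance alone gives about 1 in 20 groups. Atp5b, the catalytic subunit of the ATP synthase, had -0.43 on TSP 3, where the nearest other TSP array had -0.07. Ndufv1, the NADH-binding subunit of complex I, had -1.93 on TSP 4, with the next at -1.44, and -1.75 on CSP 5, with the next at -1.40. Uqcrc1, a core protein of complex III, had -1.79 on CSP 6, where the nearest other CSP array had -2.37.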

How the results depend on the processing

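The number of respiratory chain genes called in CSP minus CMP, 5, was 2 with the scanner's log ratios, which carry its own background correction (13.4% of all genes called), 2 with median centring (12.9%), 0 with scaling between arrays (2.19%) and 2 with the authors' deposited log2 ratios (13.5%). It was 4 with no filter on dim probes, 5 with a filter of 9 arrays and 6 with the mean of a gene's probes. Of 23 genes with several passing probes, 10 had probes of opposite sign, and the median range between a gene's probes was 0.32. The count was 23 with slide as a fixed block (28.2%), 14 with slide as a random block (26.2%), 9 without slide 1 (16.8%) and 0 within slide 4, where 1 CMP array makes this uninformative. Leaving out 1 array at a time gave 0 to 5. Where no share of all genes stands beside a count, it does not show whether a change is particular to the respiratory chain genes. In TSP minus TMP, 0 became 1 without TSP 1 and TSP 2 (14.7%) and 1 without slide 1 (14%). In TSP minus CSP, 0 became 8 with slide as a fixed block (4.41%), 3 with slide as a random block (1.18%) and 26 within slide 1 (40.7%), which holds TSP 1 and TSP 2. Alternatives chosen after seeing the data were slide as a fixed block without TSP 1 and TSP 2, which gave 15 in CSP minus CMP (21.1%) and 7 in TSP minus TMP (15.7%), and leaving out 1 further array without these 2, which gave 1 to 8 and 1 to 2. The cause of these changes was not tested. With the replicate block the counts were 4 in CSP minus CMP and 0 in the other contrasts. In a fit of the main population arrays alone, also added after seeing the data, the replicate block gave 0, beside 6 of all genes. The pairing changed no other call by over 1.5 times. TMP minus CMP and the interaction stayed at 0 in all settings run. Signs turned for Cox7a1 (0.49) and Cox8c (0.75, and 0.67 also without TSP 1 and TSP 2) in CSP minus CMP with slide as a fixed block, and for Cox8b (-0.73) and Cox8c (-0.63) in TSP minus CSP within slide 1.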
